A study of Mus musculus with 12 samples.

Results

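The effect of the dose of a weak agonist peptide on CD4 T cells was read from 6 of the 12 arrays of the series, the 3 labelled 2 µg of the peptide 102S and the 3 labelled 0.2 µg of the same peptide. The arrays were chosen by their labels alone. Of the 22690 probe sets of the table, 13556 bright enough to test were fitted, and genes were named from the 12423 of these that carried 1 gene symbol, of 20393 such probe sets in all. The cells came from mice with a transgenic T cell receptor called 5CC7, which recognises a peptide of moth cytochrome c (MCC), and per the labels 102S is a weak and MCC a strong agonist of this receptor. Per the labels, such cells were given to B10.A recipients through the tail vein, the peptide followed by the same route in phosphate-buffered saline, and after 48 h lymph nodes were pooled and 5CC7 cells sorted from them. The groups were thus 2 µg of 102S and 0.2 µg of 102S, set beside 2 µg of MCC and 0.2 µg of MCC, with 3 arrays each. All 4 groups shared the transgenic receptor, the transfer, the route and the time. No cells without peptide were analysed here, so every difference is between doses and not from a resting state. The arrays hybridised pooled RNA of sorted cells, so more cells with a transcript and more RNA per cell cannot be told apart in any value below.

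A T cell receptor that meets its peptide on an MHC molecule starts signalling through calcium, NFAT, MAP kinases and NF-κB. With costimulation, the cell leaves quiescence, grows, enters S phase and divides, and it changes its surface receptors. Weak agonists bind the receptor for shorter times than strong ones, and the amount of peptide sets how many receptors are engaged. Some activated CD4 T cells move to the B cell follicle as follicular helper cells, which carry the chemokine receptor CXCR5 and depend on the repressor BCL6.

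The labelled cell type was checked first. The 9 T cell marker genes averaged log2 10.69 to 10.85 on the arrays of 2 µg and 10.30 to 10.60 on those of 0.2 µg, so these ranges did not overlap. The list holds Cd5, which was 1.27 log2 higher at 2 µg and is described below. The other 8 genes differed by -0.21 to 0.50, and none of these differences passed the threshold of the test below. Of 9 B cell markers, 6 lay under the level below which no test was made (log2 4.48, the 40th percentile of probe set means), and the list averaged 4.82 to 4.88 at 2 µg and 4.75 to 5.34 at 0.2 µg. The myeloid and dendritic list averaged 4.27 to 4.57 and 4.32 to 4.73 at these doses, the class II list 4.72 to 4.87 and 4.60 to 5.13, and the NK list 5.12 to 5.16 and 5.46 to 5.78. CD8 markers averaged 6.59 to 6.85 at 2 µg and 6.73 to 7.05 at 0.2 µg, and plasma cell markers 4.99 to 5.22 and 5.47 to 5.61. Of the plasma cell list, Prdm1 and Xbp1 are also expressed in activated T cells. They averaged 4.17 and 9.23 at 2 µg, against 5.22 and 9.60 at 0.2 µg. Sdc1 and Jchain averaged 4.28 and 2.82 at 2 µg, against 4.40 and 2.87 at 0.2 µg. Cd8b1 averaged 7.66 at 2 µg and 7.88 at 0.2 µg, and Cd8a 5.78 and 5.97, beside 7.24 and 7.12 for Cd4. The source of this CD8 signal was not tested. In every group, replicate 1 had the transcripts of female cells (high Xist, low Eif2s3y) and replicates 2 and 3 those of male cells, so sex type was balanced between the doses. Within the groups, arrays correlated at 0.977 to 0.993 at 2 µg and 0.956 to 0.991 at 0.2 µg. Replicate 3 of 0.2 µg stood apart from its group. Its β-actin signal was 2.35 log2 higher at the 3′ than at the 5′ end of the transcript, against 0.76 and 0.90 in the other 0.2 µg arrays and 0.81, 1.30 and 1.62 at 2 µg. Where a call of a gene named here changed without it, the value without it is given.

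The higher dose of 102S raised many more transcripts than it lowered. Of 13556 probe sets tested, 360 were higher at 2 µg (2.66%) and 69 were lower (0.509%) at an adjusted p under 0.05 in limma's moderated test. When only the brightest tested probe set of each gene was counted, 262 genes were higher and 42 lower. Through any of its tested probe sets, 333 genes were called. The log2 difference, 2 µg minus 0.2 µg, was at least 1 (a doubling) for 136 of the 262 genes and at most -1 for 10 of the 42. No gene had probe sets called in opposite directions. In all 429 probe sets called, the 3 arrays of 2 µg did not overlap the 3 of 0.2 µg. Such separation was common. Among all 13556 probe sets, called or not, 1736 lay wholly higher and 1096 wholly lower at 2 µg. The median difference over all probe sets was -0.003, and the median standard error of a difference was 0.18. Of the 13127 probe sets that were not called, 12076 had a 95% confidence interval within 1 log2 of 0. Since the groups of a called gene do not overlap, its direction is the same in replicate 1 and in replicates 2 and 3 by construction. Median differences in the female-type pair and in the male-type arrays were 0.90 and 1.06 for genes higher at 2 µg, and -0.60 and -0.68 for genes lower at 2 µg. One female-type array per dose allows no test on its own.

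**Figure D1:**
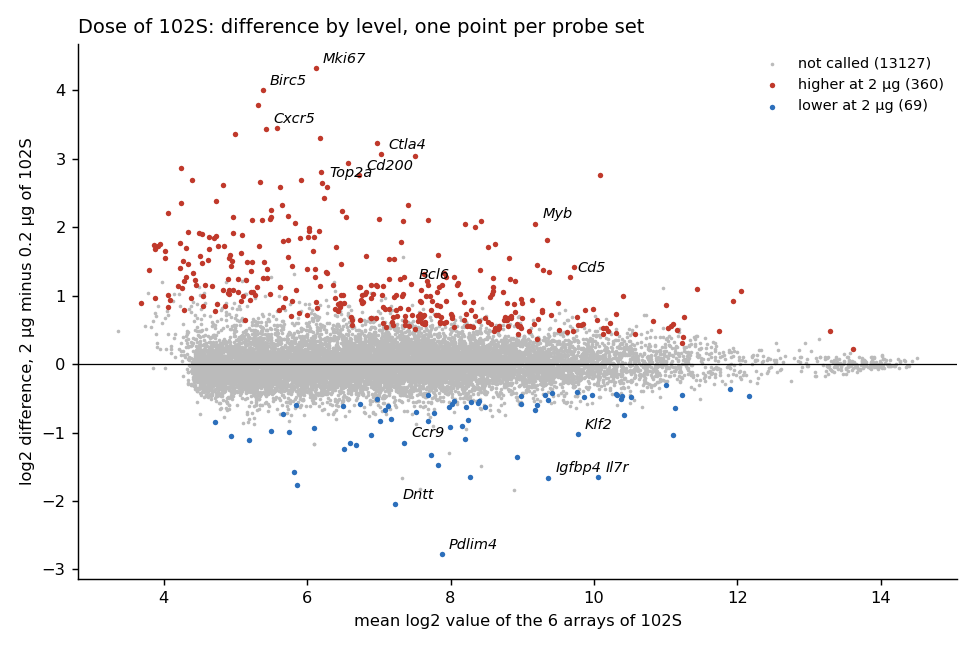
Log2 difference between 2 µg and 0.2 µg of 102S (vertical axis) against the mean log2 value of the 6 arrays (horizontal axis), with a point for each of the 13556 probe sets tested. The 360 probe sets higher at 2 µg reach 4.32 and lie mostly at low and middle levels, and the 69 lower ones reach -2.78.

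The steepest changes are shown by the 15 largest increases and 15 largest decreases among called genes. Of the 15 increases, 8 were in a list of 52 genes of mitosis and the spindle. The others included the follicular homing receptor gene Cxcr5 and the genes of the surface proteins CTLA-4, CD83 and CD200. Their differences ran between 2.65 and 4.32, with adjusted p between 2.49e-06 and 0.000384. The decreases were smaller, between -0.83 and -2.78, with adjusted p between 0.000193 and 0.0409. Among them were Il7r, the receptor for the survival cytokine IL-7, Klf2, a transcription factor of quiescence and of exit from lymphoid tissue, and Dntt, the polymerase that adds bases at receptor gene junctions in thymocytes.

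**Figure D2:**
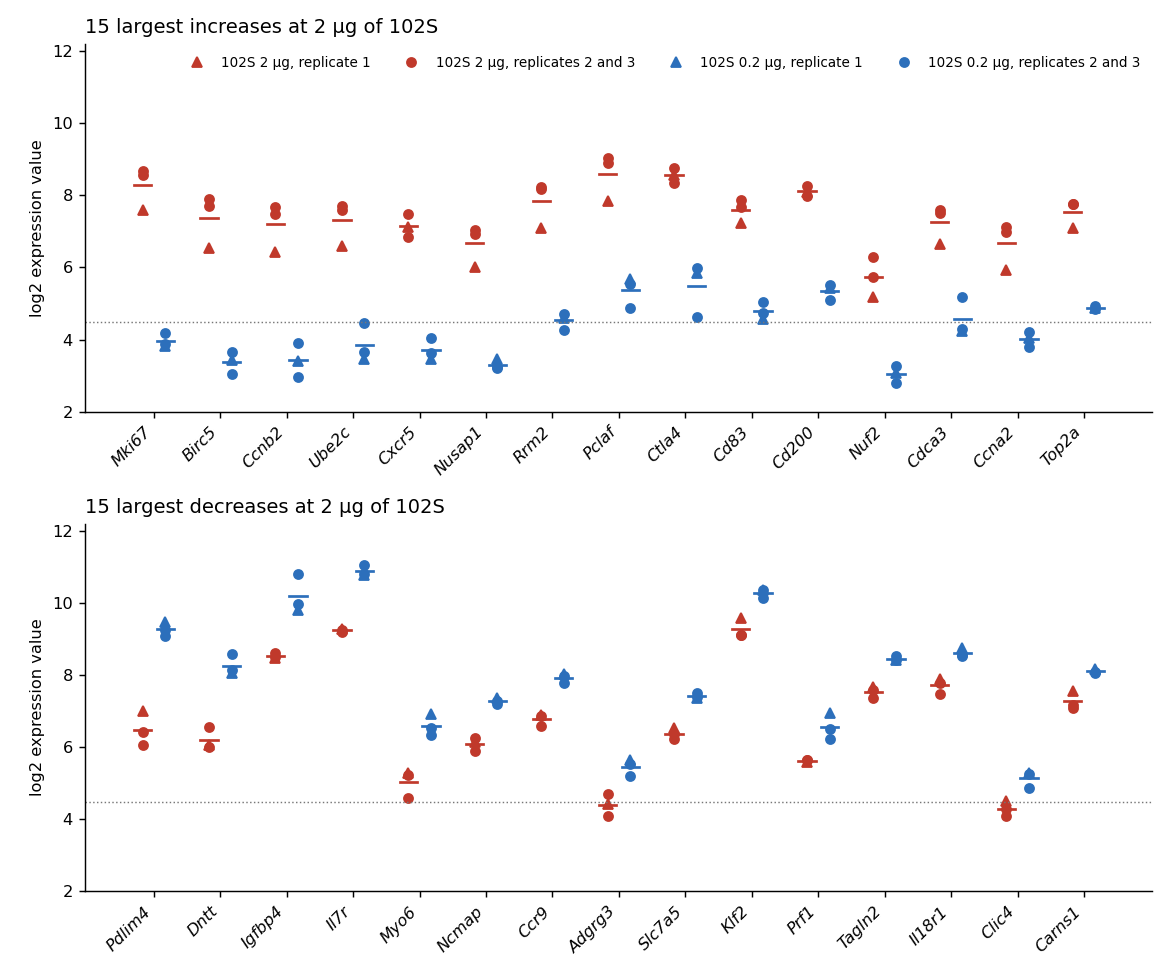
Log2 values per array of the 15 largest increases (above) and 15 largest decreases (below) between 2 µg of 102S (red) and 0.2 µg (blue). Triangles are replicate 1, circles replicates 2 and 3, bars group means, and the dotted line is log2 4.48, below which a mean was treated as dim. No gene shown has overlapping groups, and replicate 1 of 2 µg is the lowest of its group for mitotic genes such as Mki67 and Birc5.

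Genes of mitosis and the spindle were the group with the most increases. Of 52 such genes on the array, 50 passed the filter on dim probe sets, and 37 of these were higher at 2 µg, with none lower, where 2.66% of all tested probe sets were higher. Their median difference was 1.27. In 26 of the 37, the mean at 0.2 µg lay below log2 4.48, so these genes passed the filter only through other groups and their differences are lower limits. Mki67, the proliferation marker Ki-67, had log2 values of 7.60, 8.67 and 8.56 at 2 µg, against 3.82, 3.88 and 4.17 at 0.2 µg. The difference was 4.32 ± 0.24 (standard error of the fit, adjusted p = 2.49e-06), and the 0.2 µg values were all at the dim end of the array. Birc5, which encodes survivin of the chromosomal passenger complex, had 6.54, 7.70 and 7.90 at 2 µg, against 3.44, 3.65 and 3.03 at 0.2 µg (4.0 ± 0.31, adjusted p = 2.45e-05). Ccnb2, a cyclin of mitotic entry, had 6.43, 7.68 and 7.49 at 2 µg, against 3.40, 3.91 and 2.95 at 0.2 µg (3.78 ± 0.31, adjusted p = 3.45e-05). In each of these genes replicate 1 was the lowest array of 2 µg. It was still 2 log2 units or more above every array of 0.2 µg in Mki67, Birc5 and Ccnb2. Top2a, the topoisomerase that disentangles sister chromosomes, was above the dim level in both groups, with 7.09, 7.75 and 7.75 at 2 µg, against 4.88, 4.92 and 4.85 at 0.2 µg. Its rise was 6.27-fold (adjusted p = 1.11e-05). Ube2c, an ubiquitin carrier of the anaphase-promoting complex, rose by 3.44 ± 0.30, and Nusap1, a spindle protein, by 3.37 ± 0.23.

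Smaller increases covered the same machinery. The kinetochore gene Nuf2 rose by 2.69 ± 0.27, cyclin A gene Ccna2 by 2.66 ± 0.27, and Cdca3, a cell division gene, by 2.69 ± 0.31 (6.45-fold). The smallest increases called in the list were 0.85. The 13 genes that were not called lay between -0.32 and 0.92. Of these, chosen after their values were seen, the mitotic kinases Plk1 and Aurka averaged log2 5.59 and 5.73 at 2 µg, against 5.15 and 5.00 at 0.2 µg (adjusted p = 0.499 and 0.107). Foxm1, a transcription factor of mitotic genes, averaged 5.65 at 2 µg and 5.97 at 0.2 µg (adjusted p = 0.736). The list's median level per array was 5.56, 6.07 and 6.18 at 2 µg, against 4.33, 4.37 and 4.57 at 0.2 µg. Without replicate 3 of 0.2 µg, 36 genes were called higher, and in the male-type arrays alone, 33 were.

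Promoters were looked up for the mitosis and replication genes with the largest differences, Mki67, Birc5, Ccnb2 and Ube2c. Those of 3 are printed because they carry the letters most often named for mitotic genes. That these 3 hold matches therefore follows from the choice. The sequences are RefSeq windows of assembly GRCm38.p6, from 250 bases before to 50 after the annotated start, for Mki67 at chr7:135716330-135716629 on the minus strand, Ccnb2 at chr9:70421505-70421804 on the minus strand and Ube2c at chr2:164769679-164769978 on the plus strand. Capitals mark CCAAT or its reverse ATTGG, and the letters of the cell cycle homology region, TTTGAA or TTCGAA on either strand.
Mki67: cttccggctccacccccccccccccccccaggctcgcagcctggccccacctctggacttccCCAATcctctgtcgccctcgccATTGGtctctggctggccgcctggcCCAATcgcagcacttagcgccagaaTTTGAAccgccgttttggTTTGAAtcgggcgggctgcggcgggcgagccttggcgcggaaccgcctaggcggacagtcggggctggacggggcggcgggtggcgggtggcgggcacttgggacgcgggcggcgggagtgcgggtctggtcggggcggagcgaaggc
Ccnb2: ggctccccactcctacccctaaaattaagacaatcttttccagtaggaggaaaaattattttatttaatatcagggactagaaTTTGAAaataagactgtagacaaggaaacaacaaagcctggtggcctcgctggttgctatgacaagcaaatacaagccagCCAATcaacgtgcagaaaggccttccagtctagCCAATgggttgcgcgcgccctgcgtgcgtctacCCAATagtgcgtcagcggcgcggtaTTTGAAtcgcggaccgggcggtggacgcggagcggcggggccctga
Ube2c: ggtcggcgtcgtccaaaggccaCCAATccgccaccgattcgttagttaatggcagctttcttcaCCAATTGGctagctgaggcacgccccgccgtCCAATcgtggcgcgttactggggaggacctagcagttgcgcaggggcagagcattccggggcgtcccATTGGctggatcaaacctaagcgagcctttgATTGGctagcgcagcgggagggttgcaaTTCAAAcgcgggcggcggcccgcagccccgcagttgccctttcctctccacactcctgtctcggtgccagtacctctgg
These windows hold 3, 3 and 6 CCAAT matches and 2, 2 and 1 homology region matches, in that order. In Ube2c a pair of CCAAT matches overlap on opposite strands. The Birc5 window holds none of these letters and is not printed. Over all 45 windows of the 42 mitosis genes that matched by symbol, 75.6% held CCAAT and 77.8% held the homology region letters, against 37.4% and 19.2% of all 32851 windows of the same length. For the E2F letters (TTTCGCGC, TTTGGCGC, TTTCCCGC or TTTGCCGC, either strand) the shares were 6.67% in mitosis windows, 36.1% in the 36 windows of DNA replication genes and 2.26% in all windows. These are matches of letters, not measurements of binding.

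DNA synthesis genes rose in part. Of 36 DNA replication genes tested, 5 rose (Pclaf, Cdc6, Gmnn, Rfc4 and Lig1) and none fell, and the median difference was 0.31. Over all tested probe sets, 2.66% rose and 0.509% fell. The rise of Pclaf, a PCNA-binding factor, was 9.35-fold, with 7.83, 9.05 and 8.90 at 2 µg, against 5.68, 5.55 and 4.88 at 0.2 µg (adjusted p = 5.92e-05). Cdc6, which loads the replicative helicase, rose by 1.70 ± 0.32, and Lig1, the DNA ligase of lagging strand joining, by 0.56 ± 0.13. Without replicate 3 of 0.2 µg, Rfc4, Lig1 and Gmnn were no longer called (adjusted p = 0.0829, 0.108 and 0.0738), which left 2 of the 36. Among 18 nucleotide synthesis genes, 2 rose and 1 fell. Rrm2, the regulated subunit of ribonucleotide reductase, had 7.10, 8.18 and 8.23 at 2 µg, against 4.61, 4.27 and 4.72 at 0.2 µg. This was a 9.89-fold rise (adjusted p = 6.94e-05). All 3 Rrm2 probe sets were called, with differences from 1.05 to 3.31. Thymidine kinase 1 (Tk1) rose by 1.92 ± 0.27, and Mthfd1, a folate enzyme of purine synthesis, fell by 0.71 with a standard error of 0.11. Only 1 of 3 Mthfd1 probe sets was called, and the 3 ran from -0.71 to -0.32. Regulators of cycle entry were mostly not called. Of 14 E2F and G1 to S regulators, E2f8 alone was called (1.12 ± 0.26, adjusted p = 0.0381, and 0.0829 without replicate 3 of 0.2 µg), and none of 10 CDK inhibitors and antiproliferative genes was. Cdkn1b, encoding the inhibitor p27, averaged 8.14 at 2 µg and 8.26 at 0.2 µg (adjusted p = 0.953).

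Genome maintenance genes of cycling cells were among the increases, where 2.66% of all tested probe sets rose. Of 14 DNA repair and checkpoint genes, 5 rose, among them Chek1, the S phase checkpoint kinase (1.57 ± 0.24), and H2ax, a histone variant that is phosphorylated at DNA breaks (0.58 ± 0.12). Of 16 genes of chromatin in dividing cells, 4 rose. They were Uhrf1, which brings maintenance methylation to new DNA (1.56 ± 0.26), Hells, a chromatin remodeller (1.39 ± 0.24), Hmgb2, an architectural protein (1.56 ± 0.28), and Ezh2, the Polycomb methyltransferase (0.86 ± 0.14).

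**Figure D3:**
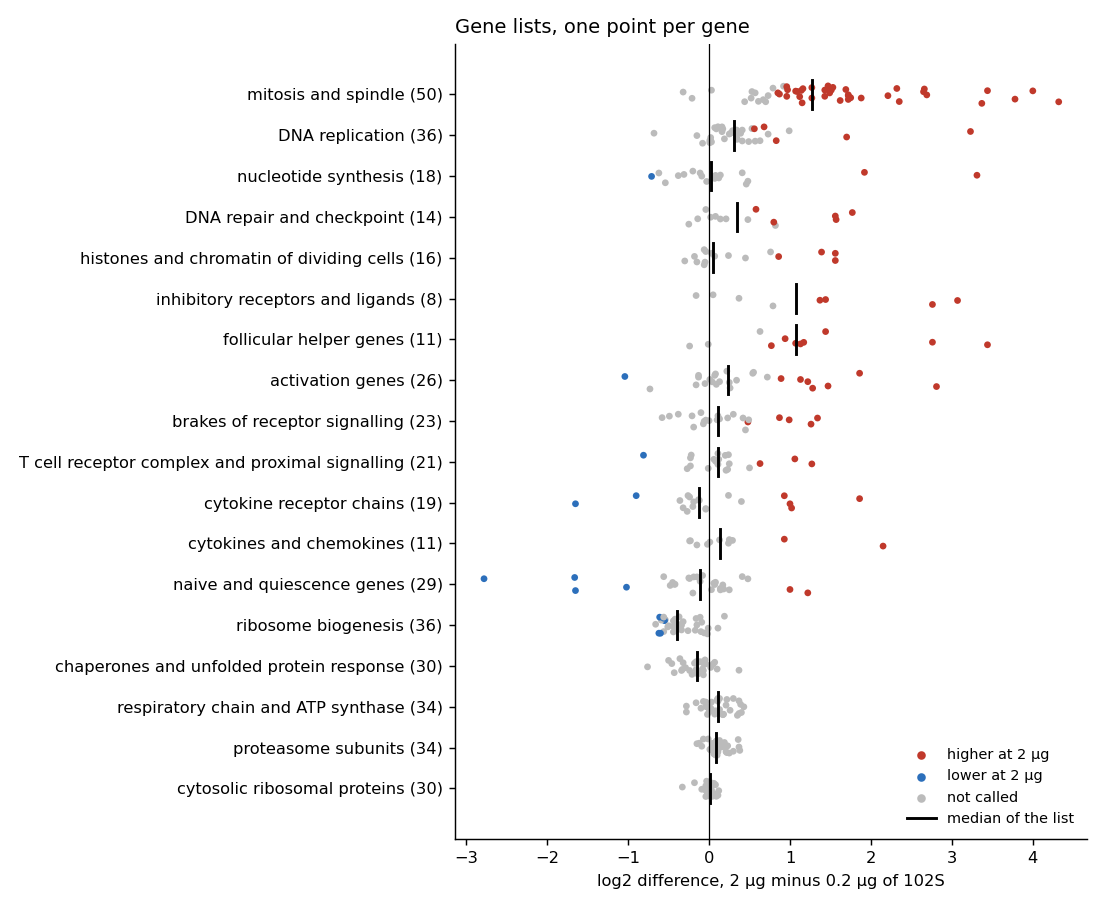
Log2 difference between 2 µg and 0.2 µg of 102S for each gene of 18 lists, with the number of tested genes in brackets, red for higher and blue for lower calls, and a black bar at the list's median. The medians are 1.27 for mitosis, 1.08 for inhibitory receptors and 1.07 for follicular helper genes, and -0.40 for ribosome biogenesis. Cd200 and Pdcd1 are in both the inhibitory receptor and the follicular helper list.

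Most tested genes of follicular helper cells were higher at 2 µg. Of 15 on the array, 11 passed the filter and 8 of these rose, with none lower, a median difference of 1.07. The share of all tested probe sets that rose was 2.66%. Cxcr5, the receptor that draws cells to follicles, had 7.12, 7.49 and 6.85 at 2 µg, against 3.46, 4.05 and 3.62 at 0.2 µg. The difference of 3.44 ± 0.25 is a lower limit because the 0.2 µg mean was dim (adjusted p = 1.3e-05). Bcl6, the repressor that follicular helper cells require, had 8.17, 8.06 and 7.88 at 2 µg, against 7.01, 6.97 and 6.62 at 0.2 µg (2.25-fold, adjusted p = 0.000394). A second probe set of Bcl6 gave -0.06 and was not called. Icos, a costimulator, had 8.99, 9.18 and 9.29 at 2 µg, against 8.04, 7.90 and 8.14 at 0.2 µg (2.18-fold, adjusted p = 0.000242). Neither Bcl6 nor Icos overlapped between the doses. Slamf6, a homophilic receptor of the SLAM family, rose 2.10-fold. Pou2af1, a coactivator, rose by 0.94 and Sh2d1a, the SLAM adaptor SAP, by 0.77. Cd200 and Pdcd1, given with the inhibitory receptors below, completed the count of 8. Maf, a transcription factor of these cells, averaged 4.68 at 2 µg and 4.69 at 0.2 µg (adjusted p = 0.992), and Il21, their cytokine, was below the filter. The list's median level per array was 8.17, 8.26 and 7.99 at 2 µg, against 7.01, 6.97 and 6.62 at 0.2 µg, and 8 genes were called without replicate 3 of 0.2 µg and in the male-type arrays alone.

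Among inhibitory receptors and their ligands, increases in part repeated those of the follicular helper list, since Cd200 and Pdcd1 are counted in both. Of 8 tested, 4 rose and none fell, with a median of 1.08, where 2.66% of all tested probe sets rose. Ctla4, which competes with CD28 for its ligands, had 8.56, 8.77 and 8.35 at 2 µg, against 5.85, 5.99 and 4.63 at 0.2 µg (8.40-fold, adjusted p = 0.00017). The low replicate 3 widened the 0.2 µg group, and without it the difference was 2.64 log2. Cd200, the ligand of an inhibitory receptor, had 8.08, 8.26 and 7.99 at 2 µg, against 5.43, 5.52 and 5.09 at 0.2 µg (6.78-fold, adjusted p = 3.67e-06). Pdcd1, the receptor PD-1, had 6.52, 6.64 and 6.35 at 2 µg, against 5.03, 5.08 and 5.09 at 0.2 µg (2.71-fold, adjusted p = 0.000133). The PD-1 ligand gene Pdcd1lg2 rose by 1.37 ± 0.30 (adjusted p = 0.0286, and 0.0811 without replicate 3 of 0.2 µg). Lag3, another inhibitory receptor, averaged 5.00 at 2 µg and 4.95 at 0.2 µg (adjusted p = 0.972). Nrp1, a receptor shared with regulatory T cells, rose by 1.4 ± 0.22.

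Activation genes moved unevenly. Of 26 tested, 7 rose and 1 fell, with a median difference of 0.24, where 2.66% and 0.509% of all tested probe sets did. Cd83, an immunoglobulin family surface protein, had 7.24, 7.88 and 7.69 at 2 µg, against 4.58, 5.05 and 4.74 at 0.2 µg (7.01-fold, adjusted p = 1.3e-05). Il2rb, the shared β chain of the IL-2 and IL-15 receptors, rose by 1.86 ± 0.19, while a second probe set gave 0.42. Irf4, a transcription factor whose level follows receptor signal strength in T cells, had 7.09, 7.44 and 7.10 at 2 µg, against 5.88, 6.07 and 5.29 at 0.2 µg (2.76-fold, adjusted p = 0.000793). Cd44, an adhesion receptor of antigen-experienced cells, rose by 1.22 ± 0.15, Tnfrsf9 (4-1BB) by 1.28 and Tnfrsf18 (GITR) by 0.89. The early response genes were not called. Egr1 averaged 10.41 at 2 µg and 10.28 at 0.2 µg, Egr2 7.94 and 7.86 in the same order of doses, and Nr4a1, the gene of Nur77, 8.17 and 7.45 (adjusted p = 0.8, 0.893 and 0.0873). Il2ra, the α chain of the high-affinity IL-2 receptor, averaged 4.41 at 2 µg and 4.54 at 0.2 µg, near the dim level (adjusted p = 0.912). Myc, the driver of T cell growth, had 7.66, 7.25 and 7.03 at 2 µg, against 8.33, 8.60 and 7.21 at 0.2 µg (adjusted p = 0.377). The groups overlap through replicate 3 of 0.2 µg. Without it, the difference was -1.15 and the adjusted p was 0.0348.

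Cytokine and chemokine receptors changed in both directions. Of 19 cytokine receptor chains, 4 rose and 2 fell, where 2.66% and 0.509% of all tested probe sets did. Il7r had 9.28, 9.25 and 9.18 at 2 µg, against 10.78, 11.06 and 10.81 at 0.2 µg, a fall by 1.65 on the log2 scale given by both of its probe sets (adjusted p = 0.00167). Il18r1, a chain of the IL-18 receptor, had 7.88, 7.48 and 7.78 at 2 µg, against 8.75, 8.56 and 8.53 at 0.2 µg (adjusted p = 0.0049). Il6st, the shared signalling chain gp130, rose by 1.00 ± 0.11, Ifnar2 of the type I interferon receptor by 0.93, and Tnfrsf1b, the second TNF receptor, by 1.02 ± 0.15. The call of Ifnar2 was lost without replicate 3 of 0.2 µg (adjusted p = 0.0803). Second probe sets of Il6st and Tnfrsf1b gave 0.44 and -0.12. Of 9 chemokine and egress receptors tested, Cxcr5 and Cxcr6 rose and Ccr9, the gut homing receptor, fell. Cxcr6 had 7.23, 6.77 and 6.59 at 2 µg, against 5.14, 5.24 and 4.01 at 0.2 µg (4.19-fold, adjusted p = 0.00722). Ccr9 had 6.88, 6.58 and 6.87 at 2 µg, against 8.03, 7.77 and 7.98 at 0.2 µg (adjusted p = 0.0102). Ccr7 and S1pr1, which hold cells in and let them leave lymph nodes, averaged 10.65 and 8.47 at 2 µg, against 10.51 and 9.03 at 0.2 µg, and neither was called (adjusted p = 0.921 and 0.545).

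Few cytokine transcripts were measurable at 48 h. Of 26 cytokine and chemokine genes on the array, 11 passed the filter and 2 rose, where 2.66% of all tested probe sets rose. Tnfsf11, encoding RANK ligand, had 7.57, 7.72 and 7.54 at 2 µg, against 5.66, 5.98 and 4.73 at 0.2 µg (4.45-fold, adjusted p = 0.000424). A second Tnfsf11 probe set gave 1.01 and was not called. Lta, encoding lymphotoxin α, rose by 0.93 ± 0.15. Il2 averaged 4.12 ± 0.27 at 2 µg and 3.32 ± 0.22 at 0.2 µg, Ifng 3.25 ± 0.09 and 3.09 ± 0.08, and Il21 2.65 ± 0.20 and 2.82 ± 0.37 (SD, n = 3), all below the filter and not tested. Among helper lineage regulators, Bcl6 was the one called of 16 tested. Gata3 averaged 7.71 at 2 µg and 7.84 at 0.2 µg (adjusted p = 0.815), and Tbx21 and Foxp3 were below the filter. Prdm1, the gene of the repressor Blimp-1, which opposes BCL6, averaged 4.17 ± 0.25 at 2 µg and 5.22 ± 0.40 at 0.2 µg and was below the filter over all 12 arrays.

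Signalling components and their brakes rose in part. Of 21 genes of the receptor complex and its proximal signalling, 3 rose and 1 fell. In all tested probe sets, these shares were 2.66% and 0.509%. Cd5, a surface brake whose level follows receptor signalling, had 10.51, 10.21 and 10.18 at 2 µg, against 9.16, 9.12 and 8.80 at 0.2 µg (2.41-fold, adjusted p = 0.000232). Its relative Cd6 rose by 1.06 ± 0.21, and Nfatc1, the transcription factor NFATc1, by 0.63 ± 0.13. Tec, a kinase of the receptor pathway, had 6.68, 6.68 and 6.95 at 2 µg, against 7.54, 7.65 and 7.54 at 0.2 µg (adjusted p = 0.00733). The coreceptor gene Cd4 averaged 7.24 at 2 µg and 7.12 at 0.2 µg, and Cd3e 10.21 and 10.13 at these doses (adjusted p = 0.904 and 0.837). Of 23 brakes of receptor signalling, 5 rose, where 2.66% of all tested probe sets did, and none fell. These were the regulators of G protein signalling Rgs1 (1.34 ± 0.22) and Rgs10 (0.87 ± 0.11), the MAP kinase phosphatases Dusp6 (1.26 ± 0.17) and Dusp1 (0.99 ± 0.24), and the diacylglycerol kinase Dgkz (0.48 ± 0.08). Without replicate 3 of 0.2 µg, Dusp1 was not called (adjusted p = 0.107), which left 4. None of 8 SOCS and cytokine signal inhibitors was called. Socs3 spread widely, with 7.99, 8.63 and 7.28 at 2 µg, against 9.13, 10.69 and 9.58 at 0.2 µg (adjusted p = 0.118). Its groups did not overlap. In the apoptosis list of 19 genes, Bcl2l11, encoding the death protein BIM, rose by 0.68 ± 0.14 and the death receptor gene Fas by 0.62 ± 0.14. Without replicate 3 of 0.2 µg, Fas was not called (adjusted p = 0.0999). One of the 4 Bcl2l11 probe sets gave -0.08. The survival genes Bcl2 and Bcl2l1 were not called (adjusted p = 0.816 and 0.548).

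Genes of naive and quiescent T cells fell in part. Of 29 tested, 4 fell and 2 rose, and the median difference was -0.11. Among all tested probe sets, 0.509% fell and 2.66% rose. Pdlim4, a cytoskeletal adaptor, had the largest fall among called genes, with 6.99, 6.05 and 6.41 at 2 µg, against 9.48, 9.07 and 9.24 at 0.2 µg (-2.78 ± 0.31, adjusted p = 0.000296). Igfbp4, a binding protein of insulin-like growth factors, had 8.48, 8.61 and 8.49 at 2 µg, against 9.79, 10.81 and 9.96 at 0.2 µg (adjusted p = 0.00154). Of 6 Igfbp4 probe sets, 5 were called lower, and the 6 ran from -1.66 to -0.29. Klf2 had 9.57, 9.12 and 9.11 at 2 µg, against 10.36, 10.35 and 10.13 at 0.2 µg (-1.02 ± 0.17, adjusted p = 0.00562). All 3 were lower on each array of 2 µg than on each of 0.2 µg. The 2 that rose were Il6st and Mxd4, a MAX partner that antagonises MYC (1.22). The other 23, among them the quiescence regulators Foxo1 and Foxp1, lay between -0.56 and 0.48. Outside this list, Dntt had 6.06, 5.99 and 6.56 at 2 µg, against 8.05, 8.13 and 8.58 at 0.2 µg, a fall by 2.05 (adjusted p = 0.000193). Myo6, an actin motor, fell by 1.57, Ncmap, a membrane protein gene, by 1.18, and Tagln2, an actin-binding protein, by 0.92. Prf1, encoding perforin, had 5.58, 5.65 and 5.65 at 2 µg, against 6.95, 6.51 and 6.22 at 0.2 µg (adjusted p = 0.035), the one call among 9 cytotoxic and NK receptor genes. With 1 array left out, this call was lost in 7 of 12 fits. The NK marker list, which itself holds Prf1, averaged 5.12 to 5.16 at 2 µg against 5.46 to 5.78 at 0.2 µg. Prf1 was its only call. The other 3 tested lay between -1.3 and 0.05, and Ncr1 and Klrk1 were below the filter. The part of NK cells in this result was not tested. A second Prf1 probe set gave -0.15.

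Among ribosome biogenesis genes, calls ran to the lower side, where 0.509% of all tested probe sets were called. Of 36 tested, 5 were called lower and none higher, 34 had a negative difference, and the median was -0.40. The 5 were Gnl3, nucleolar nucleostemin (-0.62 ± 0.15), Grwd1 (-0.61 ± 0.13), Mybbp1a (-0.60 ± 0.12), Wdr43 and Gar1, a protein of box H/ACA particles (-0.55 ± 0.13). Mybbp1a had 8.87, 8.92 and 8.93 at 2 µg, against 9.37, 9.51 and 9.63 at 0.2 µg (adjusted p = 0.0144). The count was 0 in the male-type arrays alone and 16 with the β-actin 3′ minus 5′ difference as a covariate. It was 6 without replicate 3 of 0.2 µg, where Gnl3 and Wdr43 were no longer called (adjusted p = 0.114 and 0.146). The amino acid transporter Slc7a5 fell by 1.04, with 6.54, 6.35 and 6.23 at 2 µg, against 7.37, 7.49 and 7.38 at 0.2 µg (adjusted p = 0.00259). Isoleucyl-tRNA synthetase (Iars) fell by 0.56 as the only call among 23 translation factors and tRNA ligases. No call was made among 30 cytosolic ribosomal protein genes (median 0.01), 34 respiratory chain and ATP synthase genes (0.11), 33 genes of mitochondrial ribosomes and import (-0.02), 19 glycolytic genes (0.10), 34 proteasome genes (0.09) and 30 chaperone and unfolded protein response genes (-0.15). In the lipid synthesis list of 21, Fasn, fatty acid synthase, fell by 0.45, and Scd2, a desaturase, rose by 0.79 in 1 of 2 probe sets. With 1 array left out, the call of Fasn was lost in 10 of 12 fits. The actin list of 30 had 3 increases, where 2.66% of all tested probe sets rose. Marcks, a membrane substrate of protein kinase C, led them at 1.80 ± 0.23. Of 5 Marcks probe sets, 4 were called, and the 5 ran from 0.36 to 1.87. Igtp, an interferon-induced GTPase, fell by 0.44 as the only call among 24 interferon-stimulated genes, and lost it in 8 of 12 fits with 1 array left out.

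**Figure D4:**
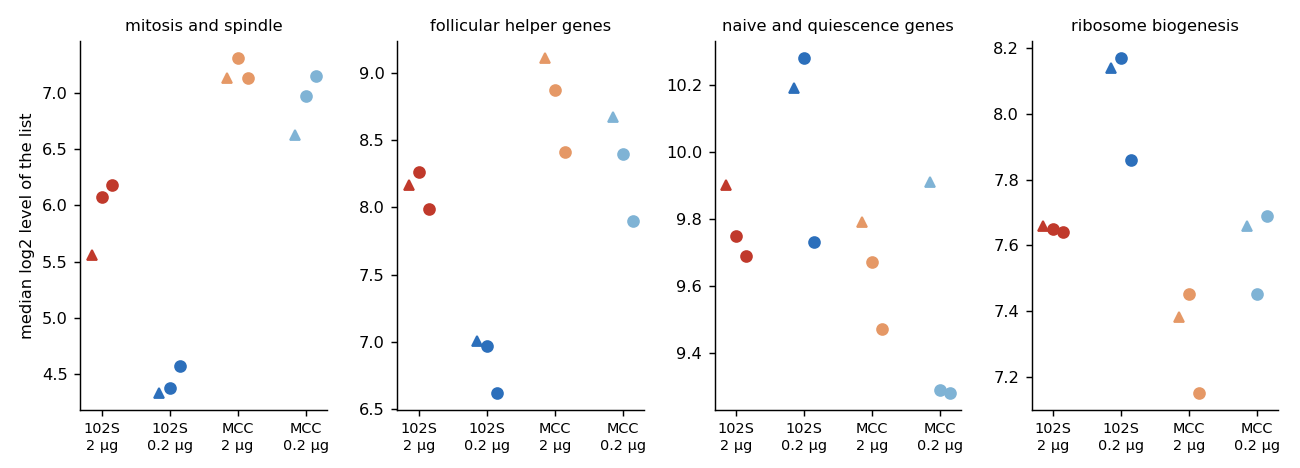
Median log2 level of 4 gene lists on each array for 102S at 2 µg and 0.2 µg and MCC at 2 µg and 0.2 µg, with replicate 1 as a triangle and replicates 2 and 3 as circles. The mitosis list spans 5.56 to 6.18 and 4.33 to 4.57 on the 102S arrays and 6.63 to 7.31 on all 6 MCC arrays.

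The same step in dose was set beside that of the strong agonist. Between 2 µg and 0.2 µg of MCC, 239 of 13556 probe sets were called (1.76%), 96 higher and 143 lower. The excess of β-actin signal at the 3′ end also differed between these doses, at 0.50, 0.67 and 0.72 on the arrays of 2 µg against 0.74, 1.78 and 2.33 on those of 0.2 µg, without overlap. Its part in the dose effects of MCC, and in their difference from those of 102S, was not tested beyond the fit with it as a covariate. Of the 262 genes higher with the dose of 102S, 28 were also higher with the dose of MCC (10.7% of the 262, and 49.1% of the 57 genes higher with MCC), and 5 were lower with it. Of the 42 lower genes, 15 were also lower with MCC (35.7% of the 42, and 15.6% of the 96 lower with MCC), and 2 were higher with it. Cd200 and Pdcd1 were higher with both, at 1.05 and 1.02 with MCC (adjusted p = 0.00748 and 0.004). The difference between the dose effects, 102S minus MCC, was called for 104 probe sets (0.767%), 94 of them positive. These were 67 genes positive and 5 negative, and 54 of the 67 were genes that rose with 102S. In the mitosis list, 9 of 50 genes differed in this way, all positive, with median dose effects of 1.27 for 102S and 0.38 for MCC. The list's median level per array, 7.13, 7.31 and 7.13 at 2 µg and 6.63, 6.97 and 7.15 at 0.2 µg of MCC, was above that of every 102S array at both doses. For Mki67 the means were 8.28 and 3.96 at 2 µg and 0.2 µg of 102S, and 10.03 and 9.48 at 2 µg and 0.2 µg of MCC (difference of dose effects 3.78 ± 0.34, adjusted p = 0.000294). For Rrm2 they were 7.84 and 4.53 with 102S, and 9.03 and 9.20 with MCC (3.47 ± 0.42, adjusted p = 0.00182). For Bcl6, 8.04 and 6.86 with 102S stood against 7.78 and 7.84 with MCC (1.23 ± 0.19, adjusted p = 0.00998). In all 3 genes the 0.2 µg dose of 102S was the lowest of the 4 groups.

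A few genes moved opposite ways. Slc22a2, an organic cation transporter, averaged 6.04 and 3.89 at 2 µg and 0.2 µg of 102S, and 5.91 and 7.14 at the same doses of MCC. It rose with the dose of 102S and fell by 1.22 with that of MCC (adjusted p = 0.00639). Wnt10a, a Wnt ligand, averaged 7.02 and 5.03 with 102S and 8.56 and 9.69 with MCC, with a fall by 1.14 for MCC (adjusted p = 0.0406). Il18r1 and Klf2 ran the other way. Il18r1 averaged 7.71 and 8.61 at 2 µg and 0.2 µg of 102S, and 7.99 and 6.68 with MCC. Klf2 averaged 9.27 and 10.28 with 102S, and 7.70 and 6.95 with MCC. Both fell with the dose of 102S and rose with that of MCC (1.31 and 0.76, adjusted p = 0.00125 and 0.0496). Ccr9 fell with both peptides, by 1.15 with 102S and by 3.16 with MCC, where it reached 3.69 at 2 µg, below the dim level.

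**Figure D5:**
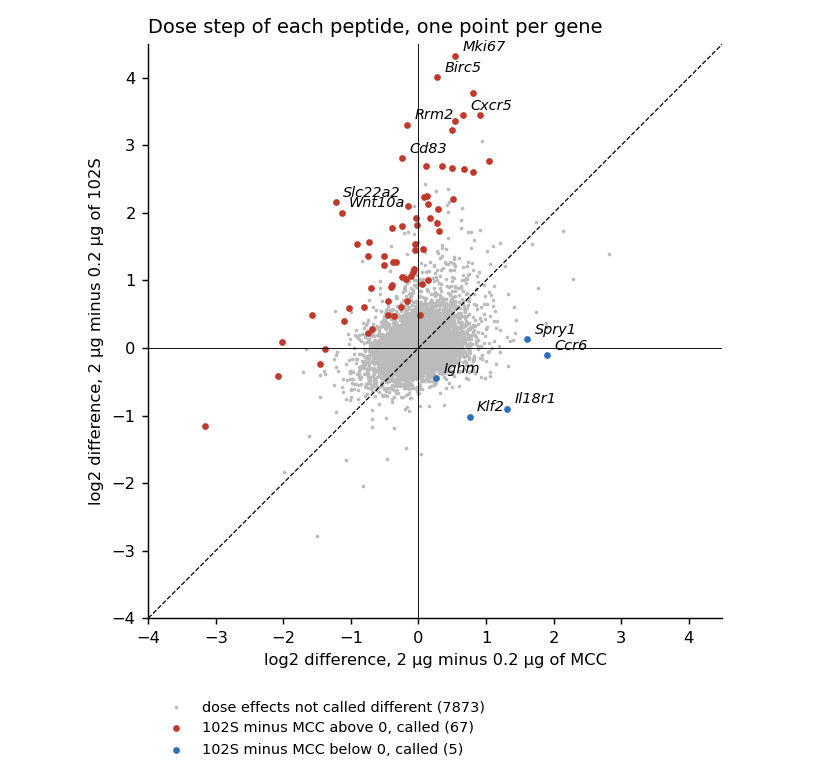
Dose effect of 102S (vertical axis, log2 difference of 2 µg minus 0.2 µg) against that of MCC (horizontal axis), with a point for each of 7945 genes, and red or blue for the 67 and 5 genes whose dose effects were called different. The dashed line marks equal effects, and Mki67, Birc5 and Rrm2 lie far above it, while Ccr6 and Il18r1 lie below.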

How the data were processed

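The authors deposited a log2 value for each probe set on each array. Per the submitters' processing notes the software was GCOS 1.4. The summary of probes, background correction and scaling are not given in the sources used. A log2 scale fits the range of values, 1.86 to 14.7, and array medians differed by at most 0.089. Per the labels' protocols, 100 ng of RNA was labelled by 3′ in vitro transcription for 16 h, so values come from the 3′ end and move with RNA integrity.

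Values were used as deposited. After removal of controls and of probe sets with a mean below log2 4.48, the 40th percentile, 13556 were tested. Of 22690 probe sets, 20393 had 1 symbol, 691 several and 1606 none. Names came from the platform annotation, checked through RefSeq (GRCm38.p6). The tested probe set with the highest mean stood for a gene (7945 genes). Where a group's mean was under log2 4.48, its difference was taken as a lower limit and no fold was given. In R 4.3.3, limma 3.58.1 (lmFit, eBayes with intensity trend) fitted 4 group means over all 12 arrays (8 residual and 4.16 prior degrees of freedom), 2-sided, with Benjamini-Hochberg adjustment over all 13556 probe sets and a threshold of 0.05. The difference of dose effects was a contrast of the same fit. A ± beside a difference is the fit's standard error, and beside a group mean the standard deviation over 3 arrays.

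Named genes were the 15 highest and 15 lowest called genes whose groups did not overlap, up to 4 called genes per list by smallest p (up to 2 where none was called), key genes, and up to 8 per direction for the difference of dose effects. Other genes, where a short count was completed or an observation made, were named after their values were seen. The members and lists were chosen with earlier results of these data known. The labels do not say that replicates were separate animals, so the spread behind the p-values is that of these samples and may in part be technical. Arrays have no read depth, and their number limits the precision. Alternatives changed the normalization, filter, trend, arrays and covariates.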

Additional observations from a re-analysis of the deposited data

Results flagged for a closer look

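The dose effect differed between the peptides for 104 probe sets, by the test of that difference itself (limma, adjusted p under 0.05). Of the 13 genes named from it, given as 102S minus MCC differences on the log2 scale, 5 were of the cell cycle. Mki67 had 3.78, Birc5 3.72, Rrm2 3.47, Ccnb2 2.97 and Nusap1 2.82. Slc22a2 had 3.38, Wnt10a 3.13 and the surface protein gene Cd83 3.05. Only 5 genes had a negative difference. They were Il18r1 at -2.21, the chemokine receptor gene Ccr6 at -2.0, Klf2 at -1.77, Spry1, an inhibitor of receptor tyrosine kinase signalling, at -1.47 and the immunoglobulin heavy chain gene Ighm at -0.71. Ccr6 and Spry1 were dim at both doses of 102S (4.36 and 4.46 for Ccr6, 4.31 and 4.17 for Spry1, at 2 µg and 0.2 µg), and averaged 7.24 and 5.34, and 6.12 and 4.52, at these doses of MCC. Ighm, a B cell marker, fell by 0.45 with the dose of 102S, while 6 of 9 B cell markers were below the filter, and its other probe sets were not called. Of these 13 genes, 10 kept their call under every alternative setting run, and Ccr6, Spry1 and Ighm lost it under at least 1.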

How the results depend on the processing

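The count of 429 probe sets for the dose of 102S (360 higher, 69 lower) was 291 to 503 under quantile normalization, median centring, no filter, a stricter filter, no intensity trend and the 6 arrays of 102S alone. With the replicate number as a block it was 828, with sex type as a block 662, with the β-actin 3′ minus 5′ difference as a covariate 1420, and 269 when only male-type arrays entered. The covariate moved the share of calls that were higher to 67.8%, against 83.9% as reported. Leaving out 1 array gave 210 to 501 calls. The count fell by over 1.5 times to 279 and 264 without 102S 0.2 µg replicate 1 or 2, and to 210 and 234 without 102S 2 µg replicate 2 or 3, where fewer samples entered the fit. Without 0.2 µg replicate 3 it was 387.

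The count of 104 for the difference of dose effects was 321 with the replicate block, 245 with the sex block, 285 with the β-actin covariate, and 62 to 142 with 1 array left out. The lowest counts were 69 without 102S 0.2 µg replicate 1, 63 and 66 without 102S 2 µg replicate 2 or 3, 62 and 67 without MCC 0.2 µg replicate 2 or 3, and 68 without MCC 2 µg replicate 3. The cause of changes under the block and the covariate was not tested.

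Replicate numbers were not taken as pairs, since deviations of same-numbered arrays of the 2 doses of 102S correlated at 0.80, -0.06 and 0.64, so the block is given here only. Arrays of different number in these 2 groups correlated at -0.71 to 0.37. All 3 correlations of same-numbered arrays were over 0.1 in 4 of the 6 pairs of groups. The labels do not say what equal replicate numbers share, so a pairing may have been left out of the fit. With the block, Nr4a1 and Socs3 were called for the dose of 102S (adjusted p = 0.0288 and 0.0178). Of the 98 named genes called for the dose of 102S, 61 were called in every setting run and 37 lost the call in at least 1. Of 52 named genes not called, 21 gained a call in at least 1. No named gene changed sign while called. Calls in the mitosis list ran from 31 to 37 with 1 array left out and from 33 to 44 under other settings. The exception was the stricter filter, with 18 of the 25 genes it tested. Calls among ribosome biogenesis genes ran from 0 to 6 with 1 array left out. Under other settings they ran from 0 to 16, with 16 under the β-actin covariate. No unstimulated cells were analysed, and dim genes have only lower limits.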

Other observations

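Of the 262 genes higher at 2 µg of 102S, 170 were in none of the lists. The following were chosen after their values were seen. Myb, a transcription factor of haematopoietic progenitors and of some activated T cells, had 10.19, 10.28 and 10.17 at 2 µg, against 8.0, 8.30 and 8.17 at 0.2 µg (2.05 ± 0.11, adjusted p = 2.1e-06), and all 3 of its probe sets were called. H2-Oa, a class II pathway regulator, had 8.61, 8.88 and 8.71 at 2 µg, against 6.65, 6.65 and 6.61 at 0.2 µg (4.28-fold, adjusted p = 1.11e-05). The B7 family gene Cd86 averaged 7.45 ± 0.68 at 2 µg and 5.03 ± 0.61 at 0.2 µg (SD, n = 3, adjusted p = 0.0045). Both genes are known from antigen-presenting cells. Of the 6 genes of the class II list on the array, 3 were below the filter and the 3 tested were not called. Among the latter, Cd74 averaged 6.04 at 2 µg and 5.84 at 0.2 µg. The part of antigen-presenting cells was not tested. Fcrl1, a B cell receptor-like gene, averaged 6.06 at 2 µg and 4.80 at 0.2 µg (adjusted p = 0.00182).

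Izumo1r, the folate receptor family member FR4, averaged 8.58 at 2 µg and 7.24 at 0.2 µg (2.52-fold, adjusted p = 0.000682). Ikzf4, the transcription factor Eos, averaged 7.97 at 2 µg and 6.44 at 0.2 µg (2.89-fold, adjusted p = 0.000805), and fell by 0.91 with the dose of MCC (adjusted p = 0.0413). Foxp3 was below the filter, at 3.99 at 2 µg and 3.49 at 0.2 µg. Tnfsf4, the gene of OX40 ligand, averaged 6.61 at 2 µg and 4.36 at 0.2 µg (adjusted p = 0.000296), and Sox4, a transcription factor, rose by 2.01, while 1 of its 4 probe sets gave 0.05. Among decreases, Pim1, a cytokine-induced kinase, fell by 0.73 (adjusted p = 0.0481) and C1qbp, a mitochondrial matrix protein, by 0.49 (adjusted p = 0.0498, and 0.139 without replicate 3 of 0.2 µg). With 1 array left out, Pim1 lost its call in 10 of 12 fits and C1qbp in 9.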
